A study of Mus musculus with 8 samples.

Results

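The YAP, TAZ and TEAD pathway genes described here are 10 genes chosen by name, Yap1, Wwtr1 (which encodes TAZ), Tead1, Tead2, Tead3, Tead4, Vgll4, Amotl2, Lats1 and Lats2, of 55341 gene symbols in GENCODE release M21. For each gene, the H3K27ac regions that hold one of its TSSs, lie in its gene body or come within 50 kb of a TSS were looked up, together with the list each region belongs to and its width. Mouse primary hepatocytes (MPH) from adult male C57Bl6 mice of WT genotype, kept in medium without serum, received 1 µM thapsigargin for 4 h or vehicle (0.04% DMSO) for 4 h. Thapsigargin blocks the calcium pump of the endoplasmic reticulum and thereby triggers endoplasmic reticulum stress (ERS). H3K27ac, an acetylated histone residue found at active promoters and enhancers, was assayed by ChIP-seq in 3 libraries for each treatment, and 1 input library was made for each treatment, giving 8 libraries. The processed files used here assign 32196 non-overlapping mm10 regions to 3 lists, H3K27ac UP (5508 regions), H3K27ac DOWN (3376) and H3K27ac unchanged (23312).

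The authors placed a region on the UP or DOWN list at an FDR of at most 0.05, and additionally asked that rising bins outnumber falling ones by a ratio of 2 or more for UP, with 0.5 as the upper limit for DOWN. By these rules, a region that passed the FDR with a ratio between 0.5 and 2 would be on none of the lists. A TSS in no region may therefore still lie in a called peak. The lists hold positions and no count, signal, fold change or p-value. Depth is therefore unknown, no difference between genes could be tested against the spread between libraries, and the size of a change in H3K27ac cannot be given. Regions of the same gene share their libraries and their neighbourhood and were not treated as replicates of a treatment. In these bulk samples, a mark lost from some of the cells and a weaker mark in all of them cannot be told apart. Of the hepatocyte markers looked up, 7 of 7 had a TSS in an H3K27ac region. This held for 1 of 5 cholangiocyte markers (Sox9, in an UP region of 2906 bp), 1 of 5 endothelial markers (Stab2, in an unchanged region of 3913 bp), 0 of 5 markers of stellate cells and fibroblasts and 0 of 5 macrophage markers. Of all 21923 protein-coding genes, 44.7% had a TSS in a region. The part of other liver cells in the values below was not tested.

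YAP and TAZ are coactivators that do not bind DNA themselves and act through the TEAD transcription factors, which recognise a short sequence with the core GGAATG. The Hippo kinases LATS1 and LATS2 phosphorylate YAP and TAZ and keep them out of the nucleus, angiomotin proteins such as AMOTL2 hold them in the cytoplasm or at cell junctions, and VGLL4 competes with them for TEAD. In liver, this pathway is known for limiting organ size and for its part in the choice between hepatocyte and biliary cell identity.

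The promoter regions of the 10 genes were of all 3 classes. Of the 10 genes, 9 had a TSS in an H3K27ac region, where 44.7% of all 21923 protein-coding genes had one. UP regions held a TSS of 2 of these 9 genes (Yap1 and Vgll4), close to the 21.4% of all 12261 genes with a TSS in any region. DOWN regions held a TSS of 4 of the 9 (Wwtr1, Tead3, Vgll4 and Amotl2), where the corresponding share of all genes was 8.91%. With starts of protein-coding transcripts only, 3 genes had a TSS in a DOWN region. The counts were not tested against these shares. A gene with more annotated starts has more chances of a TSS in a given class. The 10 genes have 91 transcripts, and all 55341 symbols have 141767. The shares were not adjusted for this. Tead1, Tead4, Lats1 and Lats2 had TSSs in unchanged regions alone, and Tead2 had its 17 annotated starts in no region. Counted by transcript, 48 of 91 starts lay in a region, of which 9 were in UP, 23 in DOWN and 16 in unchanged regions. These starts lay in only 2 UP, 4 DOWN and 6 unchanged regions. The DOWN count was carried by Amotl2, with 13 transcripts, and Tead3, with 6, and the UP count by Yap1, with 8. The transcript counts are given without the share over all transcripts, and no excess of a class can be read from them.

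**Figure D1:**
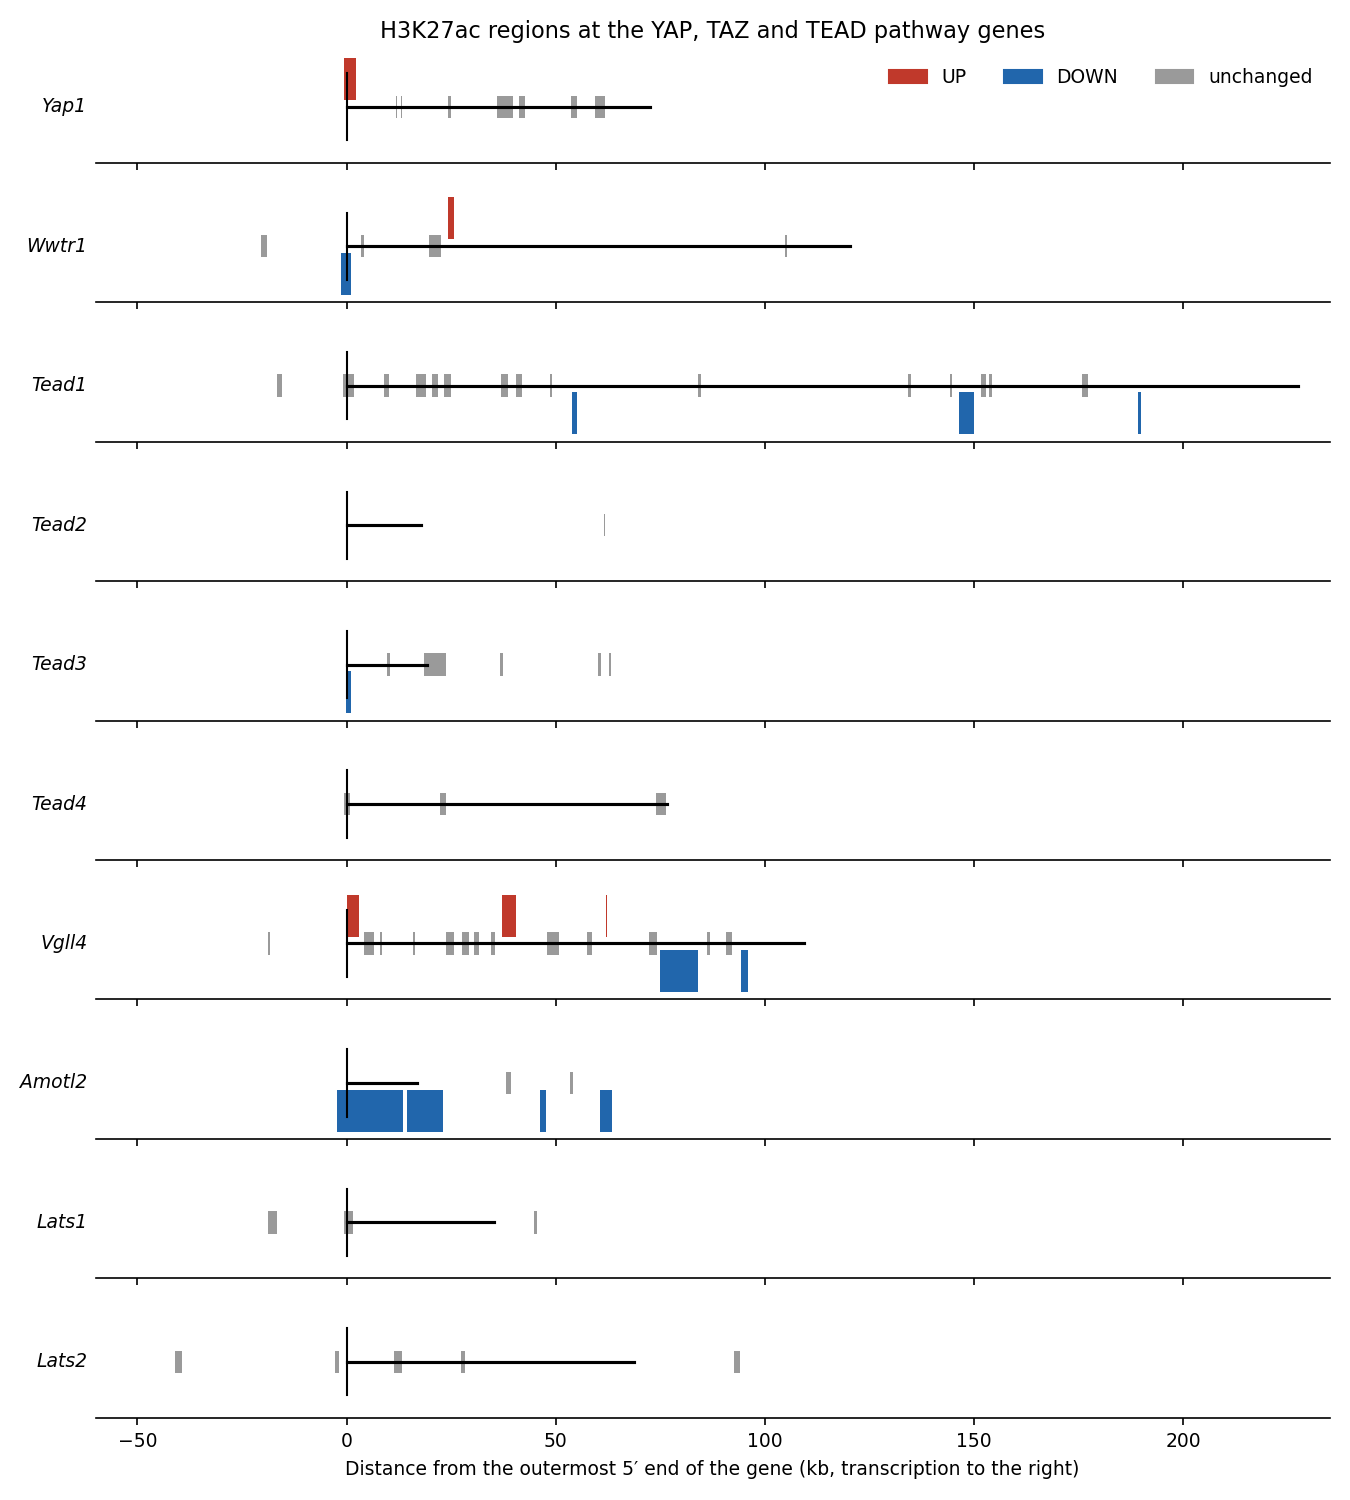
H3K27ac regions at each gene, by distance from the outermost 5′ end of the gene in kb, with transcription drawn to the right. UP (red), DOWN (blue) and unchanged (grey) regions stand above, below and on the black line of the gene body, where Amotl2 is covered by DOWN regions, the UP regions of Vgll4 lie closer to its 5′ end than its DOWN regions, and Tead2 carries no region.

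The promoters of the 5 genes with a TSS in a changed region are shown because the class of these regions carries the comparison. Each is the RefSeq promoter (the outermost one where a gene has several, as Wwtr1 with 2 and Tead3 with 3) on GRCm38.p6 (the assembly of mm10), 250 bases before to 50 after the start, printed 5′ to 3′ on the strand of the gene and ended where the first exon annotated in it begins. Capitals mark GGAATG, the TEAD core, read on either strand.
Yap1 (chr9:8004597-8004846, minus strand): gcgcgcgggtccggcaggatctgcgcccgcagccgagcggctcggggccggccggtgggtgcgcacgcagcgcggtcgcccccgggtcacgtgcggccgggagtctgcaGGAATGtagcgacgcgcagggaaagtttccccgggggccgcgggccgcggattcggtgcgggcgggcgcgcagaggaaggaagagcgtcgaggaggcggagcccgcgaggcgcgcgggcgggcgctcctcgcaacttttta
Wwtr1 (chr3:57575911-57576160, minus strand): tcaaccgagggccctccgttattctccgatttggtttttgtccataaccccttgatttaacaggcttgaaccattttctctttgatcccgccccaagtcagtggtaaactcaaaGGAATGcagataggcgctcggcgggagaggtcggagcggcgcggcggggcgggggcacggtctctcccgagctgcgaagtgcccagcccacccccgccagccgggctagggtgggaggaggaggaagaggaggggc
Tead3 (chr17:28350818-28351055, minus strand): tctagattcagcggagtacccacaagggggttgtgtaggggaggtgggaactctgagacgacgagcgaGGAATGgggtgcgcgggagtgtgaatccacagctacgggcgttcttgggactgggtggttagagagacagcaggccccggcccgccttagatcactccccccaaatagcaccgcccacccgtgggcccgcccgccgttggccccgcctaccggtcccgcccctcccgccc
Vgll4 (chr6:114969181-114969453, minus strand): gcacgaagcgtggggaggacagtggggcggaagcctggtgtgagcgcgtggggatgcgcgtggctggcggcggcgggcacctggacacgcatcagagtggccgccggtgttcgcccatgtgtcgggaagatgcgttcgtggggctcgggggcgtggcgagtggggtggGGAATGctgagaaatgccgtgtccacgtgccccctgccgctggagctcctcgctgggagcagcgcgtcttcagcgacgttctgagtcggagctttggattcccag
Amotl2 (chr9:102717554-102717667, plus strand): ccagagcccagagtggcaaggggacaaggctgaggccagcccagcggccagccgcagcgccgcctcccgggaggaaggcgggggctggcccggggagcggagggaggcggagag

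The Yap1, Wwtr1, Vgll4 and Amotl2 stretches lie whole in their changed regions. Those of Vgll4 and Amotl2 lie inside the GENCODE gene, downstream of its outermost annotated start. Of the Tead3 stretch, 140 of 238 bases are in the DOWN region, and the match in capitals lies upstream of its edge. The Tead3 promoter at the RefSeq start 28350600, which is mostly exonic and not printed, lies whole in the DOWN region and holds 3 matches. No match stands in the 114 bases of Amotl2, and its RefSeq promoter holds 1 match beyond them, 65 bases before the RefSeq start. A match to GGAATG was found in 14.7% of all 32851 RefSeq promoters. RefSeq promoters were matched for 8 of the 10 genes, with Tead1 and Tead4 missing.

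Yap1 encodes the YAP coactivator and lies on chromosome 9 from 7931999 to 8004596, on the minus strand (72598 bp). It was the coactivator gene with an UP promoter. The UP region (chr9:8002281-8005293) was 3013 bp wide and held the starts of 8 of its 10 transcripts, with that of the neighbouring Gm45494. Among UP regions, 1199 were wider. The non-coding transcript Yap1-207 started in the unchanged region of 3896 bp in intron 3 (chr9:7964798-7968693), and the coding transcript Yap1-210 started in no region. The other 6 regions of the gene body were unchanged and from 240 to 2398 bp wide. Within 50 kb of its TSSs, Yap1 thus had 1 UP, 0 DOWN and 7 unchanged regions. The nearest DOWN region was 73503 bp away.

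Wwtr1 encodes TAZ, the paralog of YAP, and extends on chromosome 3 from 57455649 to 57575910 on the minus strand (120262 bp). At the promoter it had the opposite class from Yap1. Both transcripts started in a DOWN region of 2447 bp (chr3:57574737-57577183), of which 745 bp are exonic. In intron 2, 22969 bp further into the gene, came an UP region of 1641 bp (chr3:57550127-57551767). Its edge lies 24061 bp from the nearest TSS of the gene. The gene body also held unchanged regions of 3036, 726 and 317 bp, and another unchanged region of 1397 bp lay upstream. Within 50 kb, the counts for Wwtr1 were 1 UP, 1 DOWN and 3 unchanged regions. When the distance was shortened to 10 kb, the intronic UP region dropped out and the promoter DOWN region remained.

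The TEAD genes encode the DNA-binding partners of YAP and TAZ, and they differed from each other in how many H3K27ac regions they carried. Tead1 lies on chromosome 7 from 112679318 to 112906807 on the plus strand (227490 bp) and had 17 regions in its body. Of its 15 transcripts, 4 started in an unchanged region of 2624 bp (chr7:112678371-112680994). The other 11, which begin further into the gene, started in no region. Its changed regions were all DOWN and all intronic. They were 983 bp wide in intron 1 (chr7:112733318-112734300), 3624 bp in intron 2 (chr7:112825587-112829210) and 673 bp in intron 10 (chr7:112868488-112869160). They were spread over 135843 bp, with 14 unchanged regions of the body at the promoter and between or around them. The nearest UP region was 186723 bp from a Tead1 TSS.

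Tead3, on chromosome 17 from 28331671 to 28350817 on the minus strand (19147 bp), was the TEAD gene with a changed promoter. Of its 9 transcripts, 6, with all 4 coding ones, started in a DOWN region of 1311 bp (chr17:28349647-28350957). It was narrow for its class, with 2578 wider DOWN regions of 3376. Of the surrounding unchanged regions, the widest (5120 bp) overlaps the 3′ end of Tead3 but holds the TSSs of Rpl10a and CT025652.2. Within 50 kb, Tead3 had 0 UP, 1 DOWN and 5 unchanged regions.

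Tead4, on chromosome 6 from 128224288 to 128300823 on the minus strand, had 4 of 5 transcripts starting in an unchanged region of 1242 bp, and its other regions, of 1323 and 2315 bp, were unchanged as well. Its nearest UP region was 74317 bp and its nearest DOWN region 131635 bp from a TSS. Tead2, on chromosome 7 from 45215753 to 45233644 on the plus strand, had no region in its body or at a TSS. The single region within 50 kb of a Tead2 TSS was an unchanged one of 244 bp that holds a TSS of Slc6a21, 45164 bp away. Whether Tead2 lacks H3K27ac, fell below the peak threshold or held a peak that was put on none of the lists cannot be read from them.

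Vgll4, whose product competes with YAP and TAZ for TEAD, lies on chromosome 6 from 114860628 to 114969994 on the minus strand (109367 bp). It was the gene of the 10 with regions of all 3 classes at its TSSs, which 11 of 9805 protein-coding genes with a TSS in a region had (0.112%). This pattern was taken from Vgll4 itself, so its share is a description. Vgll4 also had 18 regions within 50 kb, as did Tead1. Of 16193 protein-coding genes with any region within 50 kb, 69 (0.426%) had at least 17, a limit just below the count of these genes. The coding transcript Vgll4-204 started in an UP region of 2959 bp (chr6:114967022-114969980). The start of the coding transcript at the 5′ end of the gene, Vgll4-203, fell 14 bp beyond the edge of that region. The coding Vgll4-201 and the non-coding Vgll4-207 started in an unchanged region of 2793 bp (chr6:114919334-114922126), and 2 non-coding transcripts in a DOWN region of 1633 bp (chr6:114873986-114875618). When only starts of protein-coding transcripts were counted, Vgll4 therefore had no TSS in a DOWN region.

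The classes of Vgll4 were ordered along the gene. The midpoints of its 3 UP regions, of 2959, 3519 and 429 bp, stood 1.49, 38.8 and 62.1 kb into the gene. Those of its DOWN regions, of 8960 bp (chr6:114886058-114895017) and 1633 bp, stood 79.5 and 95.2 kb into it. So each UP region lay closer to the 5′ end than either DOWN region, with unchanged regions between them. The 8960 bp region was among the wide ones of its class, with 169 wider DOWN regions. In all, H3K27ac regions covered 31.4% of the Vgll4 gene body, and 3 UP, 2 DOWN and 13 unchanged regions came within 50 kb of a TSS.

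Amotl2 encodes an angiomotin family scaffold that binds YAP, and is itself a known target gene of YAP and TAZ. It is small, on chromosome 9 from 102716672 to 102733418 on the plus strand (16747 bp), and was the most uniformly DOWN of the 10 genes. A DOWN region of 15735 bp (chr9:102714351-102730085) held the starts of 13 of its 14 transcripts, and 35 DOWN regions were wider. After a gap of 1073 bp, a DOWN region of 8610 bp (chr9:102731159-102739768) began, which also holds the TSS of Gm5627. Together they covered 93.6% of the gene body. Further DOWN regions, of 1406 bp and 2879 bp, had their midpoints 46.8 and 61.9 kb downstream of the start of the transcript Amotl2-211, and the 4 DOWN regions spanned 65752 bp. Within 50 kb, Amotl2 had 0 UP, 4 DOWN and 2 unchanged regions. Among 16193 protein-coding genes with any region within 50 kb, 80 (0.494%) had at least 4 DOWN and 0 UP regions, a pattern taken from Amotl2 itself. The nearest UP region was 118474 bp from an Amotl2 TSS.

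Class went with width in these lists. Of the 292 regions of at least 10 kb, 40.1% were DOWN, 31.8% UP and 28.1% unchanged, whereas DOWN regions made 4.87% of regions from 500 to 1000 bp. The wide region at the Amotl2 promoter thus belonged to the most frequent class at its width, and the 673 and 983 bp DOWN regions of Tead1 did not. How far width, or the number of bins behind it, decided the class was not tested.

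**Figure D2:**
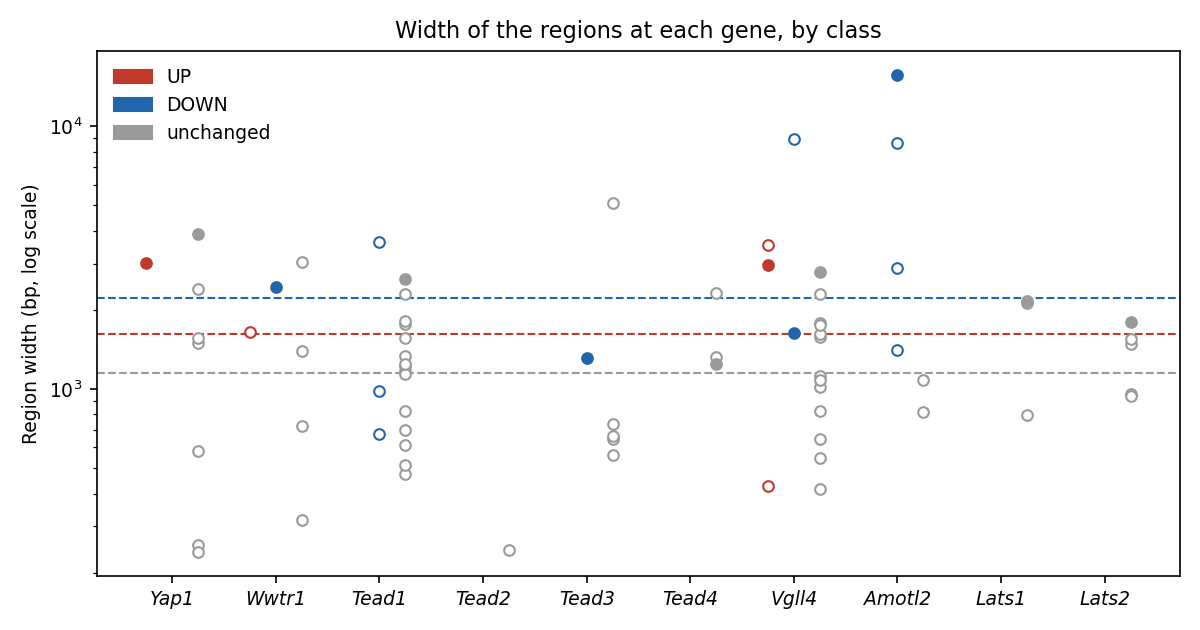
Width of each H3K27ac region in bp (log scale) at the 10 genes, coloured by class. Filled points hold a TSS of the gene, open points do not, and dashed lines give the median width of all UP (1622 bp), DOWN (2229 bp) and unchanged (1155 bp) regions. The points range from 240 bp at Yap1 to 15735 bp at Amotl2.

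The LATS kinases, which inactivate YAP and TAZ, had no changed region within 50 kb of a TSS. Lats1, on chromosome 10 from 7681214 to 7716460 on the plus strand, had 1 of 3 transcripts starting in an unchanged region of 2132 bp that also holds a TSS of Pcmt1. Its nearest DOWN region was 150089 bp and its nearest UP region 231569 bp away. Lats2, on chromosome 14 from 57689662 to 57758388 on the minus strand, had 4 of 9 transcripts starting in an unchanged region of 1802 bp, which also holds a TSS of Gm49361. Its 5 regions within 50 kb were unchanged and from 940 to 1802 bp wide, and the nearest UP and DOWN regions were 275349 and 608703 bp away. Of all 16193 protein-coding genes with a region within 50 kb, 38.3% likewise had no changed one.

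In the gene bodies, 58 regions were found, 5 UP, 9 DOWN and 44 unchanged. All of the 10 genes but Tead2 had a region in the body, so Tead2 is outside the base of the body shares. UP regions lay in the bodies of 3 genes (Yap1, Wwtr1 and Vgll4), where 28.0% of all genes with a region in the body had an UP one. DOWN regions lay in those of 5 genes (Wwtr1, Tead1, Tead3, Vgll4 and Amotl2), where the share of all genes was 14.9%. Within 50 kb of a TSS, the same sets of 3 and 5 genes had UP and DOWN regions, where 42.6% and 26.2% of all 32683 genes with a region in reach had one. The 10 genes differ in length and in their number of regions, and no test was made of these counts against the shares.

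Counted by region, 73 came within 50 kb of a TSS, and no region was shared between genes. Of these, 5 (6.85%) were UP, where UP regions made 17.1% of all 32196 regions, and 11 (15.1%) were DOWN, where DOWN regions made 10.5%. The DOWN share rested on Amotl2. Without it, 7 of 67 regions (10.4%) were DOWN and 5 of 67 (7.46%) UP, the former at the level of all regions. The DOWN count also depended on non-coding starts. Within 50 kb of starts of protein-coding transcripts, there were 8 DOWN, 5 UP and 48 unchanged regions. Tead1, Tead3 and Amotl2 had more DOWN than UP regions within 50 kb, Yap1 and Vgll4 had more UP than DOWN, Wwtr1 had as many of each, and 4 genes had neither.

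**Figure D3:**
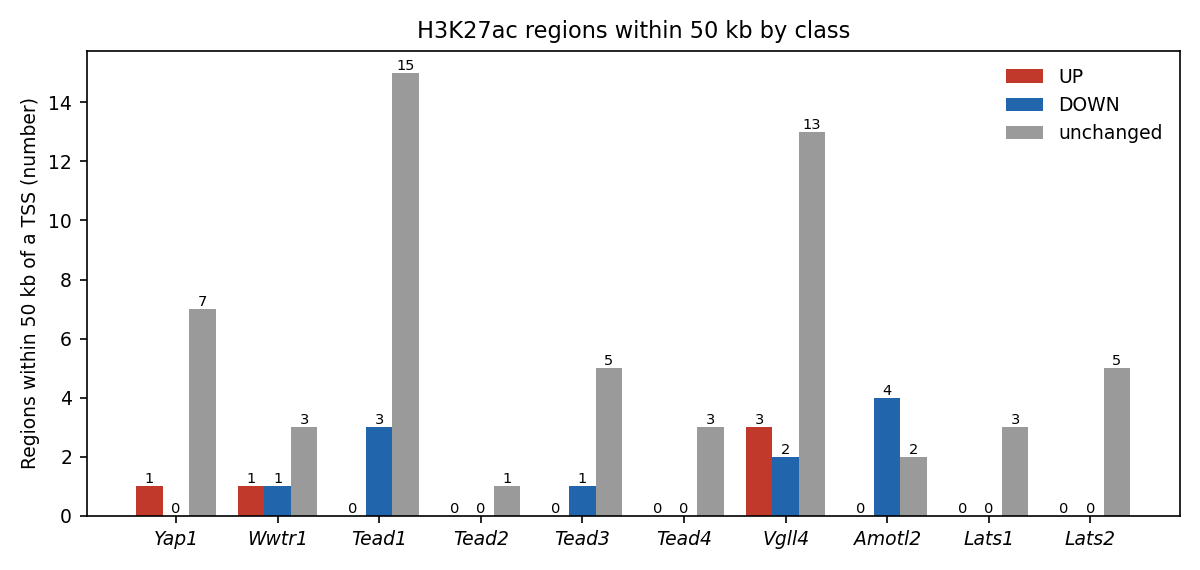
Number of UP, DOWN and unchanged H3K27ac regions within 50 kb of a TSS of each gene, 1 bar per class. Amotl2 has 4 DOWN and 0 UP regions, Vgll4 has 3 UP and 2 DOWN, and Tead2, Tead4, Lats1 and Lats2 have no changed region.

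Protein-coding genes with the same classes at the TSS and the same counts within 50 kb were sought for the 5 genes with a changed promoter, among 9805 genes. There were 5 such genes for Yap1, of which Jade1 was nearest in the width of its widest TSS region (3343 against 3896 bp), 17 for Wwtr1 (nearest Hist1h4h, 1888 against 2447 bp) and 17 for Tead3 (nearest Ckap2, 1377 against 1311 bp). For Amotl2 there was 1, Rusc2, with a TSS region of 23936 bp. None was found for Vgll4.

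The other genes of the pathway had promoters of both changed classes upstream of LATS and 1 changed promoter among cofactors and targets. Of 23 upstream Hippo genes, 19 had a TSS in an H3K27ac region, 1 of them in an UP and 5 in a DOWN region, beside shares of 21.4% and 8.91% of all genes with a TSS in a region. The UP gene was Mob1a (1546 bp), an activating subunit of the LATS kinases. The DOWN genes were Wwc1 (14145 bp) and Wwc2 (2026 bp), scaffolds of the KIBRA family that promote LATS activity, Taok3 (8384 bp), a kinase upstream of the Hippo kinases, Fat1 (1710 bp), an atypical cadherin, and Ajuba (7555 bp), a LIM protein that inhibits LATS. The other 13 were in unchanged regions alone. Within 50 kb, the 23 upstream genes had 20 UP, 20 DOWN and 79 unchanged regions, where UP made 17.1% and DOWN 10.5% of all regions. The counts of these few genes were not tested against the shares.

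Of 7 cofactors (other Vgll genes, acetyltransferases and Runx genes), 3 had a TSS in an unchanged region and 4 in none. Of 20 target genes of YAP and TAZ, 11 had a TSS in a region, 10 of them in unchanged regions alone. The widest of those were at Ccn1 (9730 bp) and Ccn2 (5772 bp), secreted matricellular proteins and widely used readouts of YAP activity. Gadd45a, a stress and DNA damage response gene that other pathways also induce, was the target with a TSS in an UP region (4680 bp), and 0 of the 11 had one in a DOWN region. With shares of 21.4% UP and 8.91% DOWN over all genes, 11 genes are too few to read a difference from these counts. Within 50 kb, the 20 targets had 11 UP, 13 DOWN and 60 unchanged regions, where UP made 17.1% and DOWN 10.5% of all regions.

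**Figure D4:**
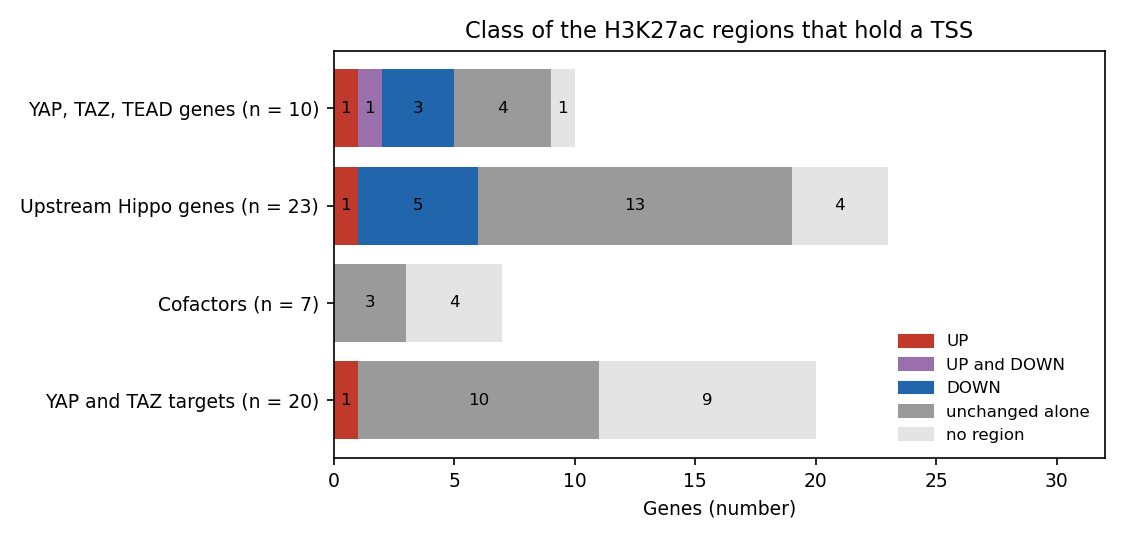
Number of genes by the class of the H3K27ac regions that hold a TSS, for the 10 genes, upstream Hippo genes, cofactors, and target genes of YAP and TAZ. Purple marks Vgll4, with TSSs in UP and DOWN regions. DOWN promoters number 3 (4 with Vgll4) among the 10 genes, 5 among the upstream genes and 0 among cofactors and targets.

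The DNA letters of the regions were compared for the TEAD core (GGAATG), an AP-1 site (TGANTCA, bound by a factor family often found beside TEAD at enhancers) and an ATF4/CHOP composite site (TGATGCAA, bound by factors of the ERS response). Both strands of the central 300 bp of each region were searched. The TG that ends the TEAD core can also begin either of the other motifs, and each motif was counted separately. In all regions, the TEAD core stood in 23.4% of DOWN windows (95% Wilson interval from 22.0% to 24.9%), 16.1% of UP windows (15.1% to 17.04%) and 17.3% of unchanged windows (16.8% to 17.7%). AP-1 sites had the reverse order, with 12.8% of DOWN (11.7% to 14.0%), 24.9% of UP (23.8% to 26.1%) and 16.97% of unchanged windows (16.5% to 17.5%). ATF4/CHOP sites stood in 0.652% of DOWN (0.431% to 0.985%), 3.81% of UP (3.34% to 4.35%) and 1.02% of unchanged windows (0.900% to 1.16%). The intervals cover counting error over regions and treat regions as independent. Restricting the count to regions that hold no TSS kept these orders, at 24.96%, 17.7% and 19.8% for the TEAD core in DOWN, UP and unchanged windows.

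**Figure D5:**
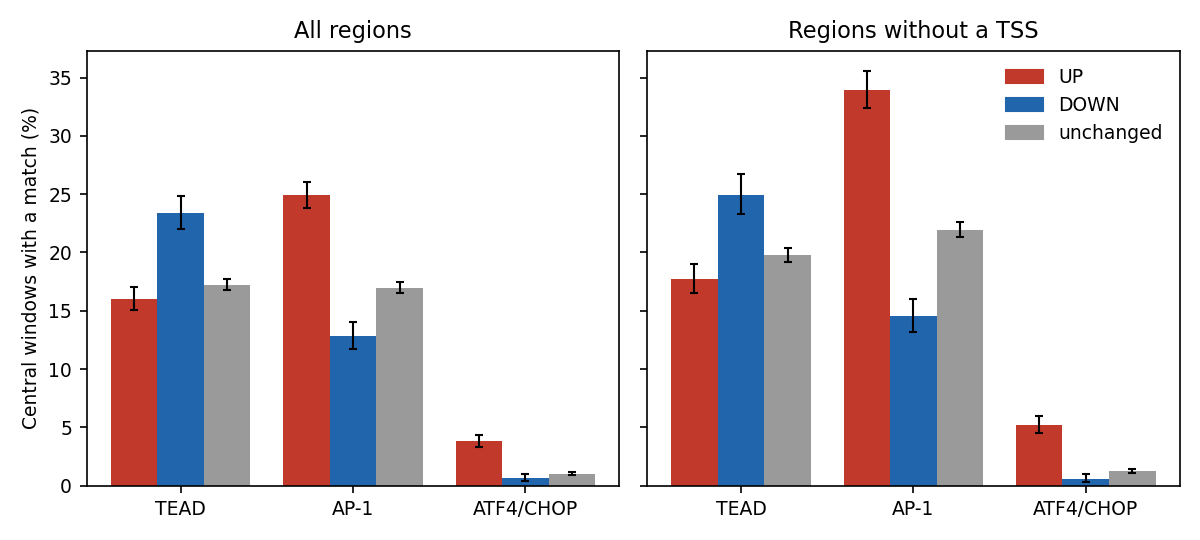
Percent of central 300 bp windows with a match to the TEAD, AP-1 or ATF4/CHOP motif, by class, in all regions (left) and in regions that hold no TSS (right). Bars start at 0 and error bars are 95% Wilson intervals over regions. The TEAD core is most frequent in DOWN regions (23.4% of all, 24.96% without a TSS) and the other motifs in UP regions.

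The regions of the 10 genes were too few to compare by class in this way. Among their 74 regions, 16 (21.6%) had a TEAD core in the central window, where the share of all regions was 17.7%, a ratio of 1.22. By class these were 3 of 5 UP, 1 of 11 DOWN (the Wwtr1 promoter region) and 12 of 58 unchanged regions. Over whole regions, the density was 0.705 matches per kb at the 10 genes and 0.610 per kb in all regions. An AP-1 site stood in 10 of the 74 windows (13.5%, where the share of all regions was 17.9%) and in 0 of the 16 changed ones. An ATF4/CHOP site stood in 1 window (1.35%, where the share of all regions was 1.46%), which belongs to an unchanged region.

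The TEAD matches nearest the centre of the changed regions in or at the genes are shown with up to 20 bases on each side, to show the letters around the matches counted below. Capitals again mark GGAATG, and the strand is that on which it reads so.
Yap1, UP region at the promoter (intron 1, chr9:8003274-8003319, plus strand): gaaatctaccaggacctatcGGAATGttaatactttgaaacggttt
Wwtr1, UP region in intron 2 (chr3:57550939-57550984, minus strand): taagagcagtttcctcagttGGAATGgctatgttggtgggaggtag
Tead1, DOWN region in intron 2 (chr7:112826198-112826243, minus strand): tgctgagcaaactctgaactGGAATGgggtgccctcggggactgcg
Tead3, DOWN region at the promoter (chr17:28350581-28350610, minus strand): aggtaagcccggGGAATGcaactcggaggc
Vgll4, UP region at the promoter (intron 1, chr6:114968620-114968665, plus strand): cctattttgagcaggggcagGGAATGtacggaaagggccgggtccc
Vgll4, UP region in intron 2 (chr6:114931140-114931185, minus strand): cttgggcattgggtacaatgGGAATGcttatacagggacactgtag
Vgll4, DOWN region in intron 3 (chr6:114889153-114889198, plus strand): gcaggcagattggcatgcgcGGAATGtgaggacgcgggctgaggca
Amotl2, DOWN region at the promoter (intron 2, chr9:102719051-102719096, minus strand): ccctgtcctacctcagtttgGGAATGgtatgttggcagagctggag
Amotl2, DOWN region at the 3′ end (chr9:102736081-102736126, minus strand): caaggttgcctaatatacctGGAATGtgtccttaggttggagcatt

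For the Wwtr1 DOWN region, the match nearest the centre is the one printed with its promoter. The DOWN regions at the promoter and at the 3′ end of Amotl2 held 11 and 9 matches, its DOWN regions of 2879 and 1406 bp downstream of the gene 7 and 1, the UP region at the Vgll4 promoter 7, the DOWN region at the Wwtr1 promoter 5, and the promoter regions of Yap1 and Tead3 and the widest DOWN region of Tead1 held 3 each. Per kb, the counts at the promoters came to 2.37 at Vgll4, 2.29 at Tead3, 2.04 at Wwtr1, 0.996 at Yap1 and 0.699 at Amotl2. The other Amotl2 DOWN regions had 1.05 (8610 bp), 0.711 (1406 bp) and 2.43 (2879 bp) matches per kb, and the widest DOWN region of Tead1 had 0.828. The UP region in intron 2 of Wwtr1 held 1 match (0.609 per kb). At Vgll4, the UP region of 3519 bp held 1 (0.284 per kb) and the DOWN region of 8960 bp held 2 (0.223 per kb). The density in all regions was 0.610 per kb. The values of the UP and of the DOWN promoters overlapped. No match was found in 4 of the changed regions, the Vgll4 UP region of 429 bp, the Vgll4 DOWN region of 1633 bp and the 983 and 673 bp DOWN regions of Tead1. A match is a run of letters and not a measured binding site.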

How the data were processed

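H3K27ac ChIP-seq regions came from 6 H3K27ac and 2 input libraries of MPH. Per the labels and the study's methods, the authors mapped reads to mm10 (Bowtie), called broad peaks on pooled libraries (MACS2), counted bins of 150 bp after extension to 200 bp, tested them with csaw paired by experiment, and combined bins overlapping a peak by at least 75 bp. The deposited lists hold start and end positions in bp, with no normalised value. Versions of Bowtie and MACS2 are not given in the sources used here. Here, the 0-based starts of the lists were converted to 1-based ones, and regions were intersected with the TSSs (141767 transcripts) and gene spans of GENCODE M21. Motifs were searched in GRCm38.p6. Introns are numbered along 1 reference transcript per gene. The 10 genes, the lists and the motifs were chosen with earlier results of these data known, so shares are described and not tested. Named were all 10 genes, other pathway genes with a TSS in a changed region, other cells' markers with a TSS in any region, and the most similar gene. Ccn1, Ccn2 and the hepatocyte markers were named after their values were seen. Some listed genes are not reported here and were left out of the counts. Lookups were tested on simulated data. Python 3.11.15, numpy 2.4.6, pysam 0.24.0 and matplotlib 3.10.9 were used.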

Additional observations from a re-analysis of the deposited data

How the results depend on the processing

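No paired analysis was possible because the lists hold no value per library. For the same reason, leaving out replicates and other FDR thresholds were not run. Of 47 recomputed counts and shares over the genes, 38 stayed within 1.5 times the reported count or within the interval of the share. These were compared by size alone, so a change of direction was not looked for. The interval of a share treats the few regions of these genes as independent and is wide, so staying within it says little. Within 10 kb in place of 50 kb, there were 3 UP, 6 DOWN and 25 unchanged regions, and within 100 kb there were 8 UP regions. With regions of at least 1 kb, 35 unchanged regions remained within 50 kb and 29 in the gene bodies. Without regions that hold a TSS of the gene, the bodies held 3 UP and 5 DOWN regions. Without Amotl2, an alternative chosen after seeing the data, 7 DOWN regions were left within 50 kb. Per gene, no difference between UP and DOWN regions within 50 kb reversed its sign. In 4 of 50 recomputations a difference moved to or from 0. These were Yap1 (0) and Tead4 (2) within 100 kb, Wwtr1 (-1) within 10 kb and Vgll4 (0) with regions of at least 1 kb. Elsewhere the sign held, but the size changed for Tead1, Tead3 and Amotl2. Within 10 kb, Tead1 went from -3 to -1 and Amotl2 from -4 to -2. Within 100 kb, Tead3 went from -1 to -3. All these changes follow from the construction of each alternative, which adds or removes regions. Region lists without depth limit all of the above to the authors' calls.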
